A study of Caenorhabditis elegans with 12 samples.

Results

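The 36 genes described here serve the nerve terminal of Caenorhabditis elegans: the release of synaptic vesicles, the transport and recycling of vesicle parts, neuropeptide processing, the making and loading of transmitters, and the calcium and potassium channels that set release. They are a list of named genes, grouped by known function and drawn up with earlier results of these data known, and all 36 were found among the 46748 genes of the deposited count table. They are spread over the 6 chromosomes, with 4 genes on I, 5 on II, 6 on III, 9 on IV, 6 on V and 6 on X. Their messenger RNA was measured in whole N2 hermaphrodites, the usual wild-type strain, in 4 groups of 3 libraries each. Controls received 0.1% DMSO, the solvent, and were taken at 5 days or at 15 days of age. The treated worms received 100 nM rotenone, which blocks complex I of the electron transport chain in mitochondria, for 24 h from the last larval stage (L4), and were taken at the same ages. The exposure thus ended before either sampling if age was counted from hatching or from L4, which the labels do not state. They also do not say how long the controls had DMSO, whether the rotenone worms had it too, or whether the 3 libraries of a group came from separate cultures. The labels name no transgene or mutation, and each library is RNA of all tissues of the animal, with its germline and any embryos inside it.

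At a chemical synapse, an action potential opens voltage-gated calcium channels at the active zone, and the entering calcium acts on synaptotagmin so that primed vesicles fuse through a complex of syntaxin, SNAP-25 and synaptobrevin. The vesicle membrane is then taken back with clathrin and refilled by transporters that are particular to a transmitter, whereas peptides travel in dense core vesicles that are made in the cell body and released with the help of CAPS. In the worm, motor neurons that use acetylcholine excite body muscle and those that use GABA inhibit it, and serotonin and octopamine modulate egg laying, feeding and movement. Several of these genes are known outside neurons as well: L-type calcium channels and slo-1 work in muscle, clathrin adaptors and synaptobrevin act in many cell types, and tdc-1 and tbh-1 are also known in sheath cells of the gonad. In RNA of whole worms, fewer cells of a type and less RNA per cell cannot be told apart.

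The libraries held 34307432 to 53716605 counts. All 36 genes passed the filter on low counts that left 17166 genes to test, and the lowest single count of any of them was 5, for unc-46 at 15 days, so that each was detected in all 12 libraries. Levels are given as CPM, counts relative to library size, after scaling by TMM (trimmed mean of M values), and differences as log2 differences ± standard error (SE) of edgeR's quasi-likelihood fit. A gene is said to have risen or fallen where its Benjamini-Hochberg adjusted p over all tested genes was under 0.05. The scaling matters at 5 days: the median log2 difference of all tested genes between rotenone and DMSO was 0.026 with TMM and 0.15 when libraries were scaled by their totals alone.

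The levels per length of exon covered a wide range. Over the 12 libraries the highest was snb-1, the synaptobrevin of the synaptic vesicle, with 334 CPM per kb. It was followed by tbh-1, the tyramine beta-hydroxylase that makes octopamine, with 144 CPM per kb, unc-57 (endophilin) with 90.7, tdc-1 (tyrosine decarboxylase, which makes tyramine) with 83.3 and egl-21 (a carboxypeptidase of neuropeptide processing) with 45.01. The lowest 8 were transmitter genes, among them unc-17 with 1.49, unc-47 1.05, unc-46 0.587 and tph-1 0.484 CPM per kb. Other genes of single transmitters were not low. Among them were tbh-1 and tdc-1, which are also known in sheath cells of the gonad, and unc-25 of the GABA neurons with 6.18 CPM per kb. In control worms at 5 days snb-1 stood at 302 and tbh-1 at 225 CPM per kb, and at 15 days at 361 and 115.9. The first of them was higher and the second lower in the older worms.

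**Figure D1:**
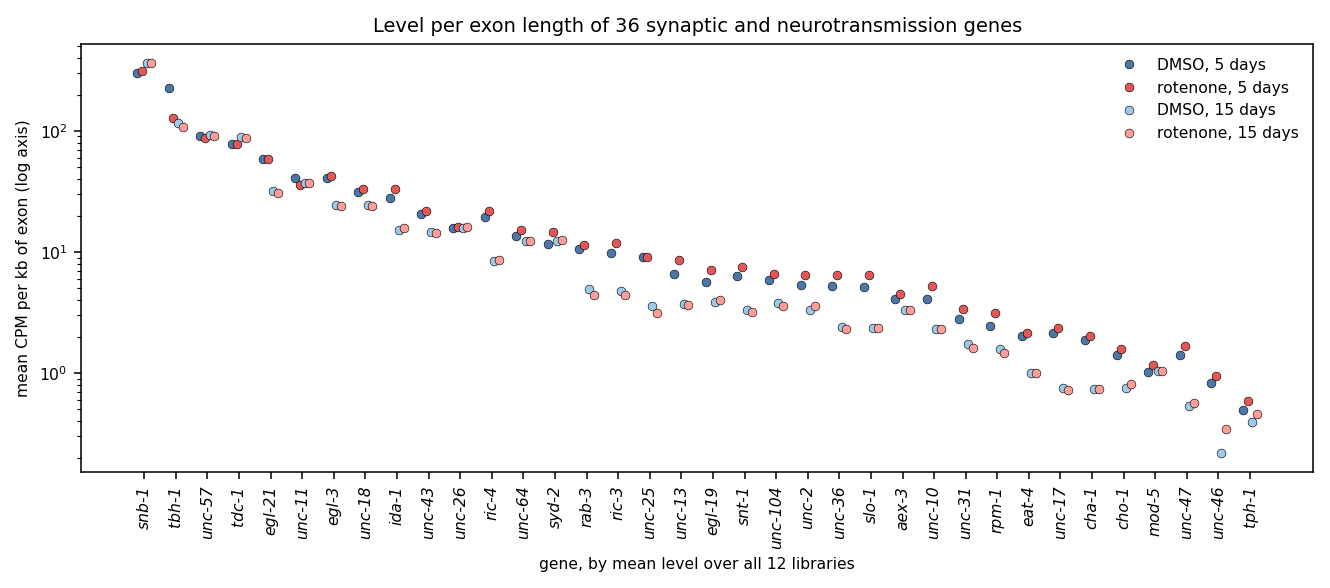
Mean CPM per kb of exon (log axis) of each of the 36 genes in the 4 groups (3 libraries each), ordered from left to right by the mean over all 12 libraries. The points of the DMSO and rotenone groups at 15 days lie close together for nearly all genes, while at 5 days tbh-1 is lower after rotenone and many genes from the middle of the order are higher.

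At 5 days, genes of vesicle release and the channels were modestly higher after rotenone, and tbh-1 was much lower. Of the 36 genes, 17 rose (47.2%) and 2 fell, tbh-1 and unc-11, beside 21.3% of all tested genes that rose and 23.3% that fell. With library totals as the scale 31 rose and 1 fell, beside 37.9% and 10.3% of all tested genes. The median log2 difference was 0.16 over the 36 genes and 0.026 over all tested genes. The rises were small, from 0.095 to 0.38 on the log2 scale. In 20 of the genes every rotenone library was above every DMSO library, and in 3 every one was below, against 27.7% and 26.5% of all tested genes. The summed level of the 36 genes was lower after rotenone, 2217 ± 3.23 CPM in DMSO (SD, n = 3) and 2119 ± 4.48 CPM after rotenone. Without tbh-1 the sum was 1726 ± 11.5 CPM in DMSO and 1838 ± 3.11 CPM after rotenone. Marker lists of other tissues moved at the same age: all 6 genes of the late embryo and larval matrix rose and 8 of 12 germline and oocyte markers fell, and their part in these results was not tested.

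Of the 9 release genes, 6 rose at 5 days and none fell. The largest rise of all 36 genes was that of unc-13 (WBGene00006752, chromosome I, 7422785 to 7454116, plus strand), which primes vesicles for fusion. Its level was 43.3, 45.3 and 47.1 CPM in the 3 DMSO libraries and 59.8, 58.6 and 58.5 CPM in the 3 rotenone libraries. The rotenone libraries were all higher, by 0.38 ± 0.038 on the log2 scale (1.30-fold). The active zone scaffold unc-10 (RIM; WBGene00006750, chromosome X, 7272317 to 7280322, minus strand), which binds Rab3 on the vesicle, had 19.7, 19.96 and 21.3 CPM in DMSO and 26.3, 25.4 and 26.2 CPM after rotenone. It was likewise higher in each rotenone library, by 0.35 ± 0.047. The calcium sensor snt-1 (synaptotagmin) had 11.9, 12.5 and 11.9 CPM in DMSO and 14.9, 14.8 and 13.4 CPM after rotenone, and rose by 0.25 ± 0.062 with no overlap. The SNAP-25 gene ric-4 had 24.5, 24.9 and 23.3 CPM in DMSO and 26.4, 27.6 and 26.6 CPM after rotenone. Its groups were close but separate, with a rise of 0.15 ± 0.041, which did not pass the test in DESeq2.

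The other release genes differed less. The syntaxin unc-64 rose from 34.7 ± 1.251 to 38.8 ± 0.305 CPM (mean ± SD, n = 3), and aex-3, the exchange factor that activates Rab3, from 19.9 ± 0.854 to 22.1 ± 0.714 CPM. With libraries scaled by pan-neuronal genes, the rises of ric-4, unc-64 and aex-3 did not pass the test. The aex-3 call was also lost in DESeq2, with RLE (relative log expression) size factors, and when any of 4 libraries of the 5-day groups (the first and the third of DMSO, the first and the second of rotenone) was left out. The Rab3 GTPase gene rab-3 had 15.6, 15.9 and 14.9 CPM in DMSO and 17.1, 16.997 and 15.6 CPM after rotenone. Its groups overlapped, and its difference of 0.10 ± 0.052 did not pass the test. The syntaxin partner unc-18 differed by 0.073 ± 0.031 and snb-1 by 0.035 ± 0.033, neither past the threshold. This vesicle protein of the fusion complex had 244 ± 9.15 CPM in DMSO and 250.1 ± 6.04 CPM after rotenone, a difference smaller than the SD of the DMSO libraries.

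Among the 6 genes of transport, recycling and synapse assembly, 3 rose and 1 fell. The presynaptic ubiquitin ligase gene rpm-1 (WBGene00004457, chromosome V, 8805399 to 8819955, minus strand), which regulates synapse formation, had 27.8, 27.4 and 29.5 CPM in DMSO and 36.4, 36.8 and 35.5 CPM after rotenone. All rotenone libraries were higher, by 0.36 ± 0.043. The active zone organiser syd-2 (liprin-alpha) had 44.7, 44.7 and 46.95 CPM in DMSO and 56.2, 57.4 and 56.97 CPM after rotenone, a rise of 0.32 ± 0.037 with no overlap. The kinesin unc-104, the motor that carries synaptic vesicle precursors along the axon, had 32.6, 32.3 and 32.8 CPM in DMSO and 37.8, 36.8 and 35.2 CPM after rotenone. It rose by 0.17 ± 0.041, again in every library, but did not pass with pan-neuronal scaling. By contrast unc-11, the clathrin adaptor AP180 that retrieves synaptobrevin, had 114, 111 and 114 CPM in DMSO and 97.7, 99.3 and 102 CPM after rotenone. All rotenone libraries were lower, with a difference of -0.18 ± 0.028. With library totals as the scale the difference of unc-11 was -0.058 and did not pass the test. The other recycling genes, unc-26 (synaptojanin) and unc-57 (endophilin), differed by 0.016 ± 0.032 and -0.043 ± 0.027, and neither passed.

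Of the 4 dense core vesicle and peptide genes, 2 rose. The dense core membrane protein ida-1 (the worm IA-2; WBGene00002048, chromosome III, 5755539 to 5765816, plus strand) had 68.96, 73.2 and 72.9 CPM in DMSO and 85.9, 87.5 and 83.5 CPM after rotenone. The groups did not overlap, with a rise of 0.26 ± 0.035. The release factor unc-31 (CAPS) had 14.9, 14.04 and 14.6 CPM in DMSO and 17.95, 19.3 and 16.04 CPM after rotenone, a rise of 0.29 ± 0.063 with no overlap. The processing enzymes did not pass the test. The proprotein convertase egl-3 had 102, 108.5 and 106 CPM in DMSO and 108.3, 109 and 110.02 CPM after rotenone. The carboxypeptidase egl-21, which trims the peptides that egl-3 cuts, had 102, 100.1 and 97.7 CPM in DMSO and 96.5, 101 and 102 CPM after rotenone. Both overlapped between the groups, with differences of 0.052 ± 0.030 and -0.0025 ± 0.031.

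The genes that make or load a transmitter showed few calls at 5 days. Of the 4 acetylcholine genes only ric-3 passed the test. This chaperone of acetylcholine receptors (WBGene00004363, chromosome IV, 7818251 to 7821195, plus strand) had 17.1, 15.3 and 14.8 CPM in DMSO and 19.9, 19.2 and 18.2 CPM after rotenone, and rose by 0.28 ± 0.057 with no overlap. The vesicular acetylcholine transporter unc-17 (WBGene00006756, chromosome IV, 3618259 to 3624699, minus strand) had 3.88, 4.202 and 4.26 CPM in DMSO and 4.16, 4.65 and 4.76 CPM after rotenone. Its lowest rotenone library lay within the DMSO range and its difference was 0.13 ± 0.087. The choline acetyltransferase cha-1 and the choline transporter cho-1 differed by 0.13 ± 0.10 and 0.17 ± 0.11. As unc-17 and cha-1 are read from a common locus on the same strand and share 66 exon bases, reads there could be counted for either or for neither.

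None of the 3 GABA genes passed at 5 days. The glutamate decarboxylase unc-25, which makes GABA, had 15.9, 15.9 and 14.6 CPM in DMSO and 16.2, 15.4 and 14.9 CPM after rotenone, and the ranges lay across each other. The vesicular GABA transporter unc-47 had 1.97, 2.14 and 2.57 CPM in DMSO and 2.44, 2.84 and 2.59 CPM after rotenone. Its sorting partner unc-46 had 1.01, 1.13 and 0.844 CPM in DMSO and 1.0302, 1.27 and 1.09 CPM after rotenone. Both overlapped between groups, with differences of 0.23 ± 0.13 and 0.18 ± 0.18. The SE of unc-47 and unc-46, up to 0.18, was several times that of unc-13, and the counts of both were low. The difference of unc-25 was -0.00067 ± 0.072. The vesicular glutamate transporter eat-4 had 4.399, 4.396 and 4.54 CPM in DMSO and 4.502, 5.06 and 4.74 CPM after rotenone, and its difference of 0.10 ± 0.083 did not pass the test.

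The largest difference of the 36 genes was in the monoamine group. The octopamine enzyme tbh-1 (WBGene00006541, chromosome X, 15500256 to 15504895, minus strand) had 502, 485 and 486 CPM in DMSO and 278, 281 and 281 CPM after rotenone. Every rotenone library was far below every DMSO library, and the libraries within a group were within a few percent of each other. The difference was -0.81 ± 0.025 on the log2 scale, or 1.75-fold lower, with an adjusted p of 1.56e-14 in edgeR's quasi-likelihood test. The gene before it in the pathway did not pass the test: tdc-1 had 204, 189 and 195 CPM in DMSO and 196, 196 and 197 CPM after rotenone, and its groups overlapped. The serotonin transporter mod-5 had 2.902, 2.59 and 2.23 CPM in DMSO and 2.63, 3.01 and 3.32 CPM after rotenone, overlapping, with a difference of 0.22 ± 0.13. The serotonin enzyme tph-1 (tryptophan hydroxylase) had 0.925 ± 0.0343 CPM in DMSO and 1.11 ± 0.0629 CPM after rotenone. Its difference of 0.26 ± 0.15 did not pass the test.

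Of the exon bases of tbh-1, 398 of 2182 (18.2%) overlap genes on the other strand, and the kit named in the labels does not mark the strand by its usual protocol. One of these neighbours, H13N06.7, was listed at 0.1505 CPM in DMSO and 0.1803 CPM after rotenone at 5 days. The other, suox-1, stood at 27.1 and 32.9 CPM and rose by 0.27 ± 0.049. How reads in the shared bases were assigned is not given in the sources used here, and the part of the overlap in the result for tbh-1 was not tested. Because tbh-1 is known in sheath cells of the gonad, 4 genes known there were looked up after the values of tbh-1 had been seen. The gap junction genes inx-8 and inx-9 fell by 0.57 ± 0.032 and 0.57 ± 0.050, while the transcription factors lim-7 and ceh-18 differed by 0.048 ± 0.050 and -0.040 ± 0.054 and did not pass. The part of sheath cells in the result for tbh-1 was not tested.

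All 5 genes of channels and their kinase rose at 5 days. The BK potassium channel slo-1, which limits transmitter release, had 18.8, 20.4 and 21.4 CPM in DMSO and 25.9, 25.7 and 24.99 CPM after rotenone, a rise of 0.33 ± 0.054. The L-type calcium channel egl-19, which also drives muscle action potentials, had 36.8, 35.2 and 38.3 CPM in DMSO and 45.8, 47.3 and 44.6 CPM after rotenone, a rise of 0.32 ± 0.040. The calcium channel alpha2-delta subunit unc-36 (WBGene00006772, chromosome III, 8193843 to 8201217, minus strand) had 21.6, 20.9 and 21.6 CPM in DMSO and 27.2, 26.8 and 25.1 CPM after rotenone, a rise of 0.30 ± 0.043. None of these overlapped between groups. The presynaptic calcium channel unc-2 rose from 41.2 ± 2.24 to 49.8 ± 0.666 CPM, by 0.27 ± 0.044. The calcium/calmodulin-dependent kinase II gene unc-43 rose from 129 ± 3.18 to 138 ± 1.82 CPM, by only 0.095 ± 0.031. The unc-43 call was lost in DESeq2, with RLE size factors, with pan-neuronal scaling, and without the third DMSO library or the second rotenone library of 5 days.

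**Figure D2:**
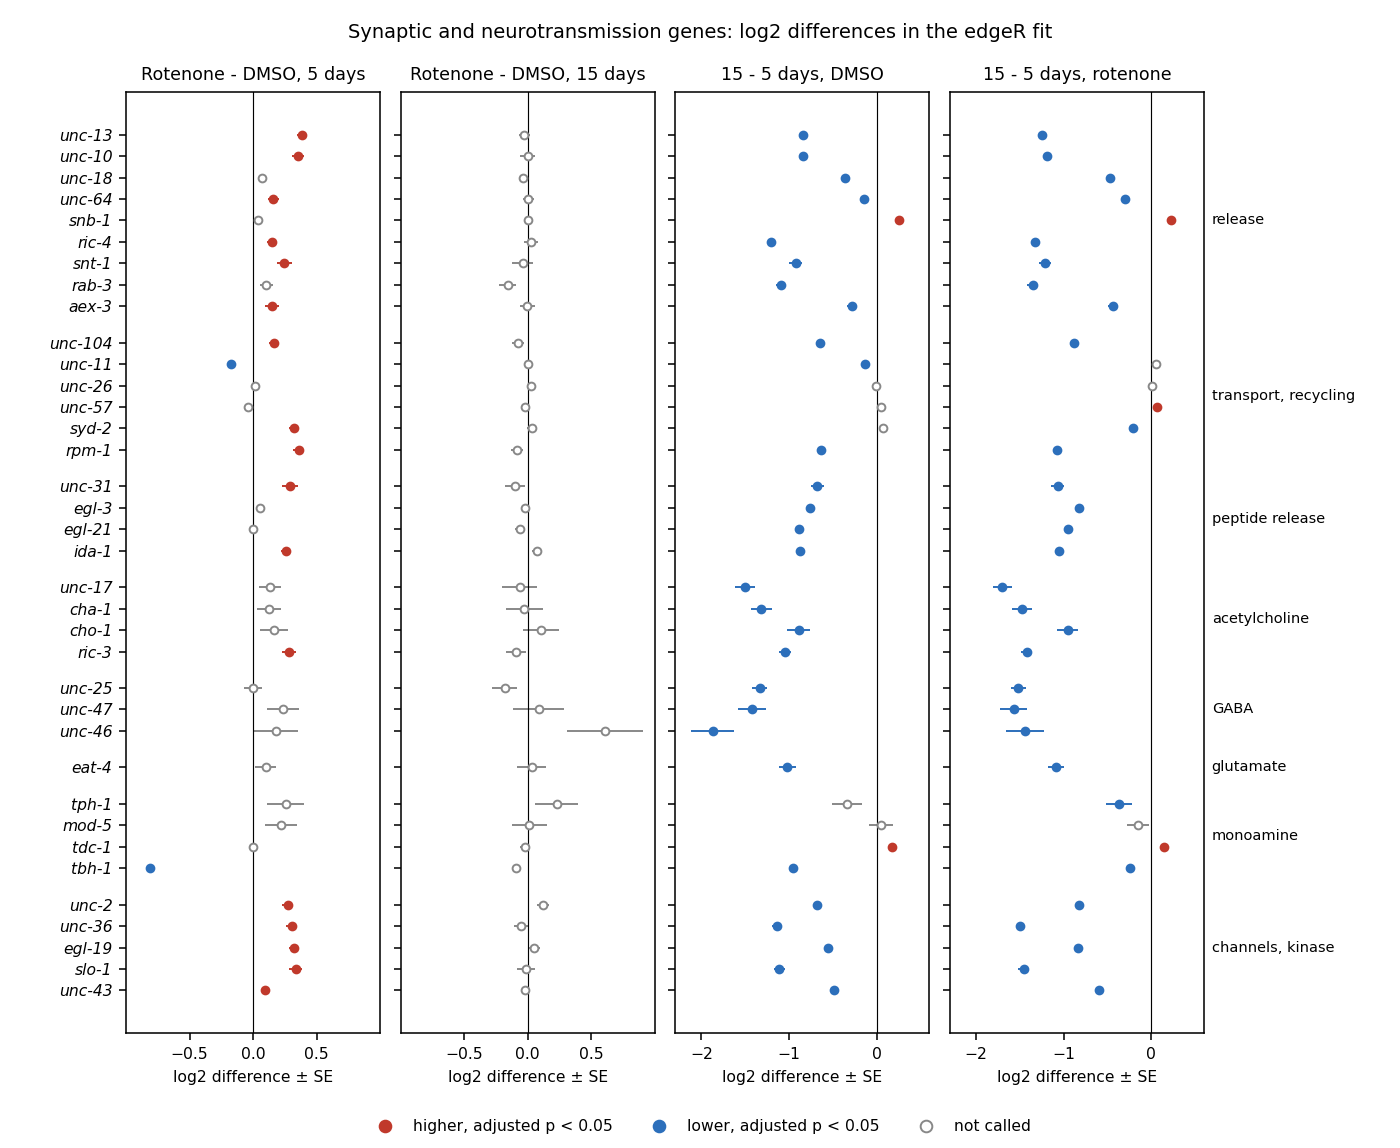
Log2 differences ± SE of the 36 genes by role in 4 comparisons (12 libraries in 1 edgeR fit, 3 per group); filled points passed the test (red higher, blue lower) and open points did not. At 5 days 17 genes are red and 2 blue, at 15 days no gene is filled, and with age 29 genes in DMSO and 30 after rotenone are blue. The left pair of panels has a narrower scale than the right pair.

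At 15 days no difference between rotenone and DMSO passed the test in any of the 36 genes, beside 0.28% of all tested genes that rose and 0.128% that fell. At an unadjusted p under 0.05, edgeR gave 3 of the 36 genes and DESeq2 2, with no adjusted call in either, and edgeR gave 7.2% of all tested genes. The smallest adjusted p in edgeR's quasi-likelihood test was 0.191, for tbh-1. The median 95% interval of a gene reached 0.12 to either side on the log2 scale, and in 24 of the 36 genes the interval lay within 0.25 of zero. In 3 genes (ida-1, unc-46 and tph-1) every rotenone library was above every DMSO library and in 3 (rab-3, egl-21 and tbh-1) every one was below, against 5.46% and 5.63% of all tested genes.

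The genes with the clearest rises at 5 days had nearly equal levels at 15 days. The level of unc-13 was 24.8, 25.7 and 25.4 CPM in DMSO and 25.1, 23.7 and 25.8 CPM after rotenone, and the ranges overlapped. The level of tbh-1 was 259, 253 and 247 CPM in DMSO and 237, 238 and 235.2 CPM after rotenone. Its groups stayed just apart, with a difference of -0.094 ± 0.026. The level of rab-3 was 7.74, 7.099 and 6.91 CPM in DMSO and 6.68, 6.298 and 6.44 CPM after rotenone, a difference of -0.16 ± 0.069, and that of unc-2 differed by 0.12 ± 0.049. The genes tbh-1, rab-3 and unc-2 were the 3 under an unadjusted p of 0.05. The largest difference in size, 0.61 ± 0.30 for unc-46, rests on few counts, with 0.328, 0.147 and 0.311 CPM in DMSO and 0.401, 0.446 and 0.396 CPM after rotenone. The summed level of the 36 genes was 1702 ± 9.42 CPM in DMSO and 1677 ± 16.2 CPM after rotenone.

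**Figure D3:**
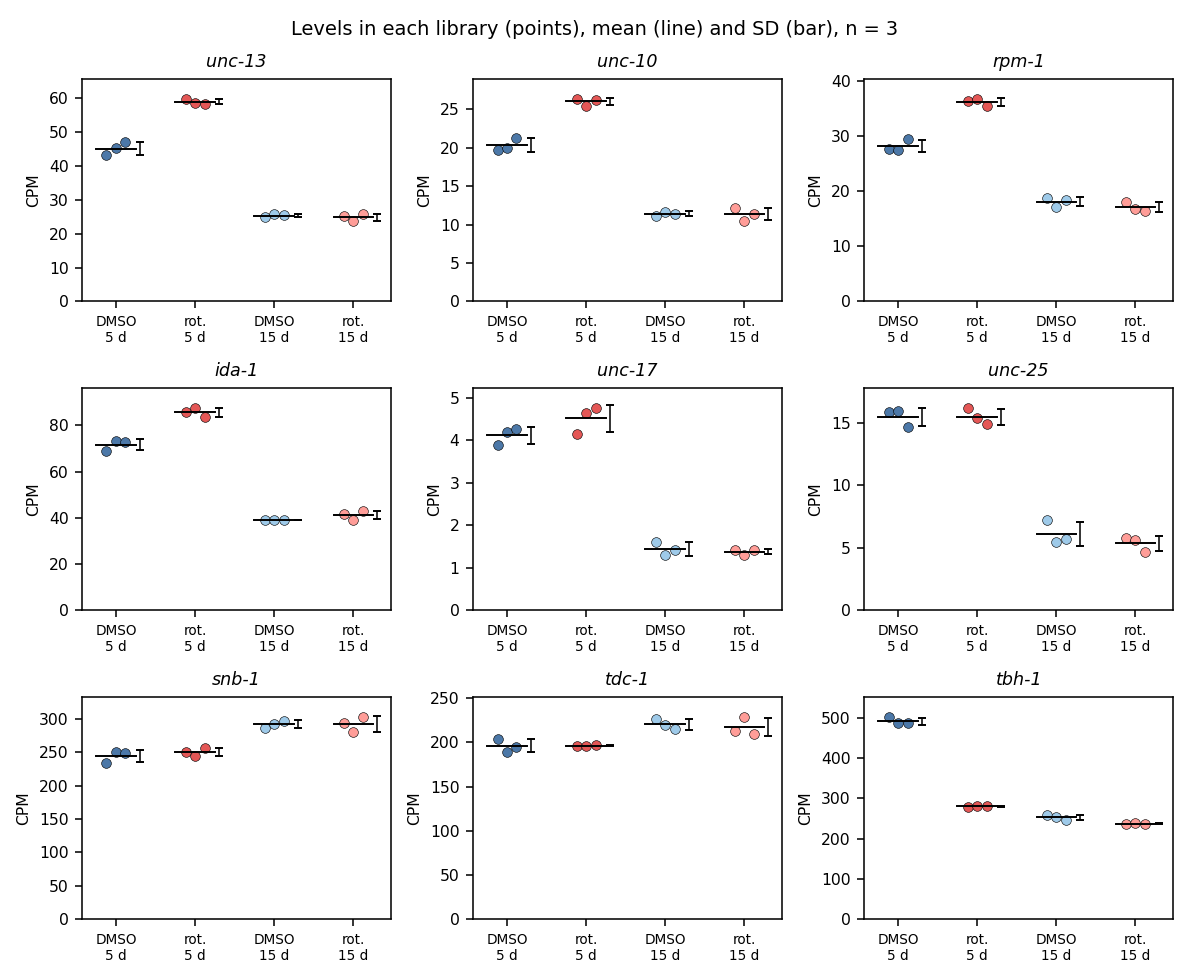
CPM in each library (points), mean (line) and SD (bar) for 9 of the genes in the 4 groups, n = 3 libraries each; each panel starts at 0 and has its own scale. unc-13, unc-10, rpm-1 and ida-1 are higher after rotenone at 5 days and lie close to DMSO at 15 days, unc-17 and unc-25 fall with age, snb-1 and tdc-1 rise with age, and tbh-1 is at 485 to 502 CPM in the young DMSO worms and at most 281 CPM in the other 3 groups.

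Between 5 and 15 days the greater part of the genes fell, in control worms and in rotenone-treated worms alike. In DMSO 29 of the 36 genes fell (80.6%) and 2 rose, beside 40.9% of all tested genes that fell and 35.2% that rose. After rotenone 30 fell (83.3%) and 3 rose, beside 42.9% and 36.6%. With libraries scaled by pan-neuronal genes, 26 fell and 6 rose in DMSO, beside 30.6% and 46.9% of all tested genes, and 26 fell and 5 rose after rotenone, beside 32% and 47.2%. The median log2 difference was -0.80 in DMSO and -0.95 after rotenone, where the medians over all tested genes were -0.060 and -0.091. In DMSO 30 genes had every 15-day library below every 5-day library and 2 had every one above, against 41.7% and 35.4% of all tested genes. The worms at 15 days are older in every tissue. In DMSO 11 of the 12 body wall muscle markers fell, 7 of the 7 pharynx muscle markers, and 8 of the 8 tested intestine markers. Other lists varied: of 12 germline and oocyte markers 5 fell and 4 rose, and of 9 epidermis markers 5 fell and 3 rose. Of 7 glia markers 4 fell and 1 rose, and of 6 late embryo and larval matrix genes 4 fell and none rose. Of 5 tested sperm genes 4 rose and none fell. The summed level of the body wall muscle markers was in the range of 2344 to 2550.0 CPM at 5 days and 1169.6 to 1325 CPM at 15 days. That of the intestine markers was 5725 to 6151 CPM at 5 days and 706 to 755 CPM at 15 days. The genes asp-1 and cpr-1 weigh most in that sum, and the median log2 difference of the intestine list was -1.69. No marker of these lists was at 0 in all libraries. The part of such shifts in the results for the 36 genes was not tested.

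By the median of a role, the falls in DMSO were largest for GABA (-1.42) and acetylcholine (-1.19). All 4 acetylcholine genes, all 3 GABA genes and eat-4 fell in DMSO and again after rotenone. The level of unc-17 went from 3.88, 4.202 and 4.26 CPM at 5 days to 1.61, 1.296 and 1.43 CPM at 15 days in DMSO, a log2 difference of -1.503 ± 0.11, or 2.83-fold lower. After rotenone it reached 1.43, 1.31 and 1.41 CPM and the difference was -1.70 ± 0.11. The level of ric-3 in DMSO went to 7.74, 8.04 and 7.098 CPM at 15 days, a log2 difference of -1.05 ± 0.067, with no overlap. Differences of cha-1 and cho-1 in DMSO were -1.32 ± 0.12 and -0.89 ± 0.13. In the GABA group, unc-25 went to 7.21, 5.45 and 5.71 CPM in DMSO at 15 days, below each 5-day library. The differences were -1.34 ± 0.084 for unc-25 and -1.42 ± 0.16 for unc-47, which had 0.6804, 0.943 and 0.872 CPM. The largest fall, -1.87 ± 0.25 for unc-46, is the least precise. The glutamate transporter eat-4 went to 2.29, 2.39 and 1.95 CPM, a log2 difference of -1.02 ± 0.10.

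Release genes fell in 8 of 9 cases in DMSO. The exception was snb-1, which rose from 234, 249.6 and 249 CPM at 5 days to 286, 292 and 297 CPM at 15 days. Every 15-day library was above every 5-day library, with a rise of 0.26 ± 0.033 in DMSO and 0.22 ± 0.033 after rotenone. The partners of snb-1 in the fusion complex went down: ric-4 went to 10.9, 10.5 and 10.1 CPM in DMSO, a log2 difference of -1.21 ± 0.048, well below its 5-day libraries. The syntaxin unc-64 fell by only 0.15 ± 0.045, a call that was lost in DESeq2 and with RLE size factors, and a direction that turned to 0.093 when libraries were scaled by pan-neuronal genes. The level of rab-3 went to 7.74, 7.099 and 6.91 CPM in DMSO, a log2 difference of -1.09 ± 0.060. Differences of snt-1, unc-13 and unc-10 were -0.92, -0.84 and -0.84 in DMSO. Those of unc-18 and aex-3 were smaller, -0.37 and -0.28, and the latter did not pass with pan-neuronal scaling. After rotenone, where the difference of unc-64 was -0.30, that call too was lost with pan-neuronal scaling.

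Of the 6 genes of transport, recycling and assembly, 3 fell with age in DMSO and none rose. The levels of unc-26 were 60.2 ± 0.765 CPM at 5 days and 59.9 ± 1.251 CPM at 15 days in DMSO, a difference of -0.0060 ± 0.032. Neither unc-57, at 0.043 ± 0.027, nor syd-2, at 0.076 ± 0.038, passed the test in DMSO. After rotenone unc-57 rose by 0.063 ± 0.027, which was lost without a filter, with only the compared groups, and without any of 5 libraries (the first DMSO library, the first and the second rotenone library of 5 days, and the second and the third rotenone library of 15 days), and turned to -0.039 with library totals. The difference of syd-2 after rotenone, -0.21 ± 0.037, turned to 0.060 with pan-neuronal scaling. The motor unc-104 went to 22.2, 20.2 and 20.2 CPM in DMSO, a log2 difference of -0.64 ± 0.044, and rpm-1 to 18.7, 17.2 and 18.4 CPM, a log2 difference of -0.63 ± 0.047. Neither overlapped its 5-day range. The level of unc-11 went to 101, 104.4 and 103.4 CPM in DMSO, a log2 difference of -0.13 ± 0.028 that DESeq2 did not call and that turned to a rise of 0.11 with pan-neuronal scaling.

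All 4 dense core and peptide genes fell at both treatments. The peptide enzymes, which had not passed the test for rotenone, fell clearly with age: egl-21 went from 102, 100.1 and 97.7 to 53.3, 54.1 and 54.6 CPM in DMSO, a log2 difference of -0.89 ± 0.032. Its partner egl-3 went from 102, 108.5 and 106 to 61.995, 61.7 and 63.2 CPM, a log2 difference of -0.76 ± 0.031. Both were lower in every older library. The level of ida-1 went to 39.2, 39.2 and 38.9 CPM and that of unc-31 to 8.77, 8.896 and 9.48 CPM, differences of -0.88 ± 0.038 and -0.68 ± 0.071.

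The 5 channel and kinase genes also fell in both. The subunit unc-36 went to 9.75, 10.1 and 9.28 CPM in DMSO, less than the lowest young library by a wide margin, with a log2 difference of -1.14 ± 0.051. The channel slo-1 went to 9.58, 8.34 and 10.004 CPM, a log2 difference of -1.11 ± 0.063. The channel egl-19 went to 24.9, 25.5 and 24.4 CPM, a log2 difference of -0.56 ± 0.043. Differences of unc-2 and unc-43 were -0.68 and -0.48 in DMSO.

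The monoamine genes did not share a direction. In DMSO tbh-1 fell by 0.96 ± 0.026, while tdc-1 rose from 204, 189 and 195 CPM at 5 days to 227, 220.1 and 215 CPM at 15 days, by 0.17 ± 0.034. After rotenone tdc-1 rose by 0.15 ± 0.034, a call lost with library totals, where the difference was 0.045. The difference of tbh-1 after rotenone was smaller, -0.24 ± 0.026, and with pan-neuronal scaling it turned to a difference of 0.032. The level of mod-5 went to 2.77, 2.44 and 2.72 CPM in DMSO, with overlapping ages and a difference of 0.049 ± 0.13. The difference of tph-1 with age was -0.34 ± 0.17 in DMSO, which did not pass, and -0.37 ± 0.15 after rotenone, which passed but was lost in DESeq2, with RLE size factors, with pan-neuronal scaling, without a filter, and when any of 5 libraries was left out (the first and the second rotenone library of 5 days, and each of 15 days).

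Whether the difference between rotenone and DMSO itself changed between the ages was tested with an interaction term. In 15 of the 36 genes it did: 13 had a lower rotenone difference at 15 days than at 5 days (36.1%, beside 10.3% of all tested genes) and 2 a higher one (beside 15.4%). With library totals 24 were lower and 1 higher, beside 25% and 5.47% of all tested genes. The 13 include the 9 genes with the largest rises at 5 days, and the term contains the 5-day difference itself. The term was -0.45 ± 0.066 for rpm-1, -0.41 ± 0.058 for unc-13, -0.39 ± 0.10 for unc-31 and -0.37 ± 0.094 for ric-3. Of the channel genes, unc-36, slo-1 and egl-19 passed, while unc-2 at -0.15 ± 0.065 and unc-43 at -0.11 ± 0.045 did not. The highest was tbh-1, with 0.71 ± 0.036, followed by unc-11 with 0.18 ± 0.040, the 2 genes that had fallen at 5 days. No GABA or glutamate gene passed. The same term is the difference between the change with age after rotenone and that in DMSO, since it is formed from the same 4 groups: tbh-1 went from 491 ± 9.14 to 253 ± 5.87 CPM in DMSO and from 280.3 ± 1.62 to 237 ± 1.396 CPM after rotenone.

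Further genes were read from lists of the same roles, and in which tissues these genes act was not tested. At 5 days after rotenone 21.3% of all tested genes rose and 23.3% fell. Of 21 further release and active zone genes, 13 rose at 5 days after rotenone and none fell, with a median log2 difference of 0.17. The largest rise was 0.45 ± 0.076, in snt-3, another synaptotagmin. Of 18 tested further calcium, potassium and sodium leak channel genes 14 rose and none fell, led by nlf-1, a factor that brings the sodium leak channel to the membrane, with 0.39 ± 0.077. Of 9 tested endocytosis and transport genes 6 rose and 2 fell, and of 11 peptide genes 3 rose and 2 fell. The latter include the convertase aex-5, which fell by 0.55 ± 0.055. Of 20 further transmitter genes 6 rose and 4 fell, from 0.41 ± 0.15 for the glutamate transporter glt-6 to -1.06 ± 0.057 for ptps-1, an enzyme of the tetrahydrobiopterin cofactor that serotonin and dopamine synthesis need. In the peptide and transmitter lists the shares were near those of all tested genes, with 27.3% and 30% risen and 18.2% and 20% fallen. With age in DMSO, 15 of the 21 release genes fell and 5 rose, 15 of the 18 channel genes fell and 2 rose, and 16 of the 20 transmitter genes fell and 1 rose. Of all tested genes 40.9% fell and 35.2% rose with age in DMSO. Of the 11 peptide genes 7 fell and none rose, and aex-5 fell by 2.06 ± 0.067. Of the 9 endocytosis and transport genes only 1 fell and 4 rose, and klc-2, a kinesin light chain, rose by 0.60 ± 0.034.

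**Figure D4:**
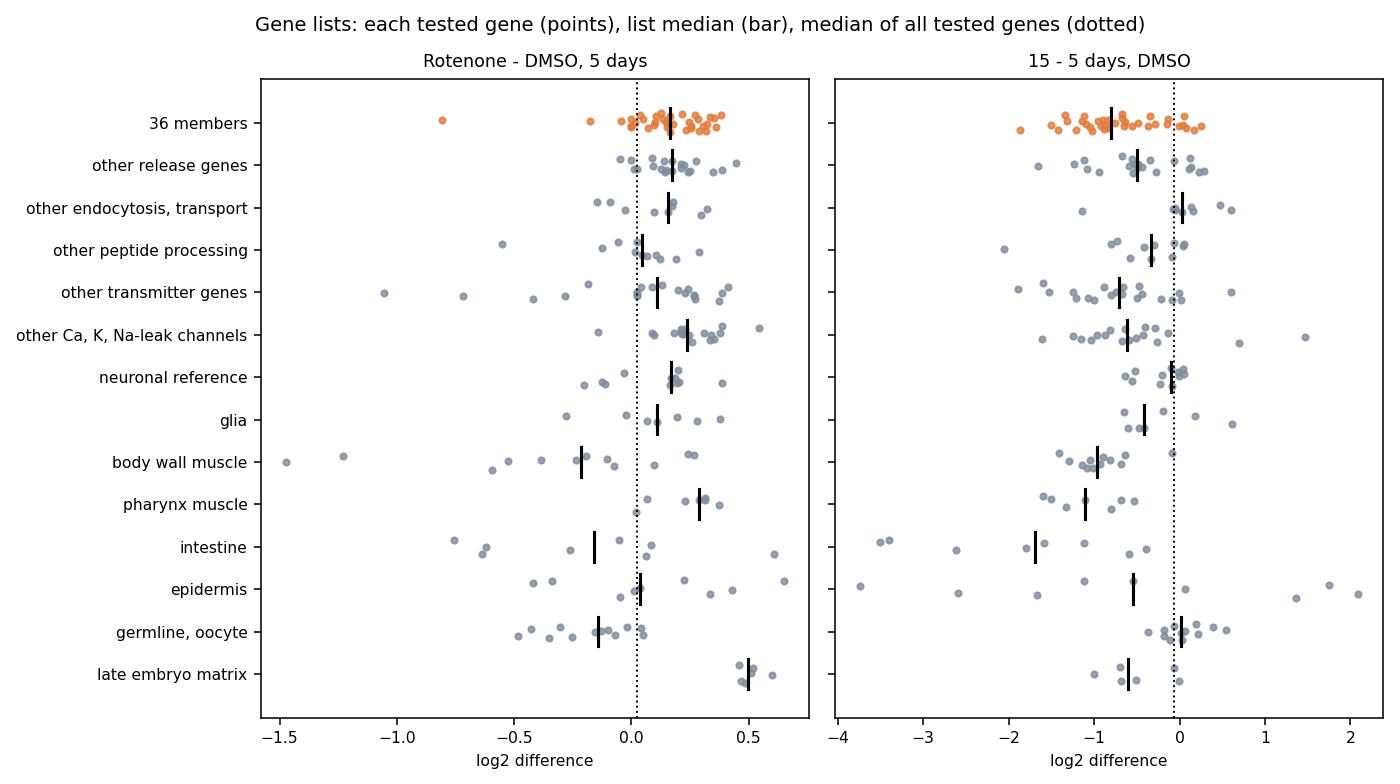
Log2 difference of every tested gene (points) in the 36 genes, in 5 further lists by role and in 8 marker lists of neurons and other tissues. Bars give the median of each list and the dotted line that of all tested genes. The panels show rotenone against DMSO at 5 days and age in DMSO. The late embryo matrix list lies to the right of the dotted line as a whole at 5 days. With age, the median of the pan-neuronal list lies near the dotted line and that of the 36 genes to its left. Single genes of both lists lie on either side of the line with age.

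By median, markers of neurons moved less with age than the 36 genes. Of 11 pan-neuronal genes, 6 rose and 3 fell at 5 days after rotenone, beside 21.3% and 23.3% of all tested genes. The median of the 11 was 0.17, which is close to that of the 36 genes. With age in DMSO 6 fell and none rose, beside 40.9% and 35.2% of all tested genes. The median of the 11 genes was then -0.10, with a wide range, from -0.64 for sad-1 to 0.048. Their summed level, in which unc-44, maco-1 and unc-16 weigh most, was 1243 to 1267 CPM in DMSO and 1298 to 1312 CPM after rotenone at 5 days, and 1052 to 1070.03 CPM in DMSO at 15 days. In DMSO at 5 days unc-44 had a mean of 431 CPM and rgef-1 3.96 CPM. Whether the RNA in that sum came from neurons alone was not tested, so it is not a measure of neuronal content. With libraries scaled to that sum, 12 of the 36 genes rose and 3 fell at 5 days, beside 15.3% and 30.5% of all tested genes, and the median difference with age in DMSO was -0.56. Of 7 glia markers, 3 rose and none fell at 5 days.

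Markers of other tissues also moved with rotenone at 5 days, when 21.3% of all tested genes rose and 23.3% fell. All 6 genes of the extracellular matrix of late embryos and larvae rose, with a median of 0.50 and a summed level of 416 to 469 CPM in DMSO and 619.8 to 634 CPM after rotenone. At 15 days the ranges of that sum were 297 to 324 and 304 to 332 CPM. Of 12 germline and oocyte markers 8 fell and none rose at 5 days, with sums of 11460.2 to 11979 CPM in DMSO and 10031 to 10569.8 CPM after rotenone. Of 7 pharynx muscle markers 5 rose, with sums of 415 to 435 and 503 to 523 CPM. Of 12 body wall muscle markers 7 fell and 2 rose, of 8 tested intestine markers 4 fell and 1 rose, and of 9 epidermis markers 1 fell and 2 rose. None of these lists had a gene at 0 in all libraries. The part of these tissues in the rises of the 36 genes was not tested.

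Exon length and level were set beside the differences. Of the 36 genes, 21 were in the longest of 5 equal bins of exon length, with 2188 bases or more. Over all tested genes the share that rose at 5 days was 11.1% in the shortest bin, then 16.6%, 21.2% and 24.8%, and 33.04% in the longest. The median log2 difference over the same bins was -0.021, 0.027, 0.036, 0.023 and 0.047. Across the 36 genes, the rank correlation of the difference at 5 days was 0.46 with exon length and -0.57 with level per kb, and across all 17021 tested genes with a length it was 0.066 and -0.38. These are descriptions across genes that share the same libraries. With age in DMSO the rank correlation with level per kb was 0.41 across the 36 genes and 0.15 across all tested genes.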

How the data were processed

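RNA of whole worms was sequenced in 12 libraries. The submitters' processing notes name featureCounts 1.4.6-p4 (a read counter), STAR 2.4.1d (an aligner), bcl2fastq 1.8.3 and, as genome build, WBcel235; their settings and annotation release are not given in the sources used here. The authors deposited raw counts per gene, whole numbers with no normalization, in 46748 genes. A deposited table named RPKM was not used, because its column sums rose with the library totals. Positions and symbols came from an Ensembl annotation of WBcel235, which held 46449 of the gene identifiers. No member sequence was given in the reference used here, so none is printed.

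The test was run in edgeR 4.0.16 under R 4.3.3: filterByExpr with a minimum count of 10, TMM factors, and the quasi-likelihood F test in 1 model of 4 groups over all 12 libraries, without a covariate; the sequencing lane, which the labels give, entered as an alternative. P-values were adjusted by Benjamini-Hochberg over 17166 genes, with a threshold of 0.05. The SE is the log2 difference divided by the square root of F. Intervals have a level of 95% and use the 8 residual degrees of freedom of the fit. The F test uses more, so the intervals are generally wider than ones matched to that test. This did not hold for every gene with low counts, such as tph-1 for rotenone at 5 days. The common biological coefficient of variation was 3.41%. The script was tested on simulated data. Replicates of a group differed by more than sampling noise; as nothing says they were separate cultures, p-values measure only the spread between these libraries.

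The 36 genes and the gene lists were chosen with earlier results of these data known. Values in single libraries are given by role, for up to 2 genes with the lowest adjusted p for rotenone at 5 days. They are also given for up to 2 such genes for age in DMSO, and for each gene called in the interaction. For many of these genes they cover only some of the 4 groups. The values of snb-1 and the 15-day values of unc-46 and rab-3 were added to these after they had been seen. From other lists, the called gene with the largest rise or fall may be named. The 4 genes known in gonadal sheath and the genes overlapping tbh-1 were looked up after values had been seen. The symbols erp-1, nca-1 and opt-2 of the lists matched no gene. A list of sperm genes was also read: of its 8 genes 5 were tested, and 1 rose at 5 days.

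Libraries with the same replicate number shared a sequencing lane, per the labels. Deviations from group means correlated at -0.046 to 0.18 in 18 pairs of the same lane and at -0.19 to 0.12 in 36 pairs of other lanes, so the lane was also fitted as a block. The other alternatives were RLE size factors, library totals, scaling by pan-neuronal genes, no filter, only the compared groups, DESeq2 1.42.0, and leaving out each library.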

Additional observations from a re-analysis of the deposited data

Results flagged for a closer look

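In 15 genes the difference between rotenone and DMSO was not the same at 5 and 15 days, by the interaction term of edgeR's quasi-likelihood test with adjusted p under 0.05; values are the difference at 15 days minus that at 5 days, on the log2 scale. Among release genes it was -0.41 for unc-13, -0.35 for unc-10, -0.29 for snt-1 and -0.26 for rab-3. The calls of snt-1 and rab-3 are the least secure: each was lost in DESeq2, with pan-neuronal scaling, with no filter on low counts, and without 8 and 6 of the 12 libraries respectively, left out singly. For snt-1 these were the first and the third DMSO library and the first and the second rotenone library of 5 days, and the first and the third DMSO library and the second and the third rotenone library of 15 days, and the call was also lost with RLE size factors. For rab-3 they were the third DMSO library and the first and the second rotenone library of 5 days, and the first DMSO library and the second and the third rotenone library of 15 days. Among transport and assembly genes it was -0.24 for unc-104, -0.29 for syd-2, -0.45 for rpm-1 and 0.18 for unc-11. The call of unc-11 was lost with library totals, where the value was 0.048. Among dense core genes it was -0.39 for unc-31 and -0.18 for ida-1, and the call of ida-1 was lost with pan-neuronal scaling and without the second rotenone library of 5 or of 15 days. The value was -0.37 for ric-3, 0.71 for tbh-1, -0.36 for unc-36, -0.27 for egl-19 and -0.35 for slo-1.

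The gene rab-3 differed with the interaction term although neither age passed the test on its own: its difference was 0.10 ± 0.052 at 5 days and -0.16 ± 0.069 at 15 days.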

How the results depend on the processing

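With library totals in place of TMM, which moved the median of all genes at 5 days from 0.026 to 0.15, 31 of the 36 genes rose and 1 fell with rotenone at 5 days, in place of 17 and 2, beside 37.9% and 10.3% of all tested genes in place of 21.3% and 23.3%. The interaction then had 1 gene higher and 24 lower, in place of 2 and 13, beside 5.47% and 25% of all tested genes. With RLE size factors, pan-neuronal scaling and DESeq2, 15, 12 and 14 genes rose at 5 days. With age in DMSO, 2 genes rose with TMM, 4 with RLE size factors, 4 with library totals, 6 with pan-neuronal scaling and 4 in DESeq2. With age after rotenone, 3 rose with TMM, 5 with RLE size factors, 1 with library totals, 5 with pan-neuronal scaling and 5 in DESeq2. Directions turned in 5 cases. With pan-neuronal scaling the differences with age in DMSO were 0.093 for unc-64 and 0.11 for unc-11, and after rotenone 0.060 for syd-2 and 0.032 for tbh-1. With library totals that of unc-57 after rotenone was -0.039. The scale itself moved these values, since it shifts all genes of a comparison alike. Leaving out 1 library at a time gave 15 to 18 genes that rose and 2 that fell at 5 days, 0 at 15 days, 2 to 3 risen and 29 fallen with age in DMSO, 2 to 4 and 29 to 30 after rotenone, and 2 and 10 to 14 in the interaction. With the sequencing lane as a replicate block, 17 genes rose and 2 fell at 5 days, and no call of the 36 genes changed in any comparison. The low counts of unc-46, unc-47, tph-1 and unc-17 at 15 days limit what can be said of differences there.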
